A study of Rattus norvegicus with 12 samples.

Results

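The genes described here are 10 heat shock chaperones of the rat gene table, chosen by symbol: Hspa8, Hsp90aa1, Hsp90ab1, Hsph1, Hspb1, Dnajb1, Hspa5, Hspd1, Hspe1 and Bag3. All 10 were found among the 21556 genes listed, and all 10 were among the 11451 genes tested, which had a mean of at least 0.5 FPKM (read fragments scaled to gene length and to the mapped fragments of the library). RNA was sequenced from ND7/23 cells, a line made by fusing rat dorsal root ganglion neurons with mouse N18Tg2 neuroblastoma cells and used as a model of sensory neurons. There were 4 groups of 3 libraries, all taken at 6 h. One was the control, and the others received menthol at 100 μM, Wnt3a at 100 ng/ml, or both agents at these doses. Menthol is an agonist of the cold channel TRPM8 and Wnt3a is a ligand that activates Wnt/β-catenin signaling. The design asks whether TRPM8 activation changes the response to Wnt3a, and here the same groups were read for the chaperones.

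Heat shock proteins are chaperones, which bind unfolded proteins and help them reach or keep their folded state. HSP70 proteins bind short hydrophobic stretches in cycles of ATP hydrolysis. J-domain proteins such as Dnajb1 start the cycle, and nucleotide exchange factors such as Hsph1 and Bag3 end it. HSP90 proteins act later, on kinases, steroid hormone receptors and other clients, and the chaperonin of Hspd1 and Hspe1 encloses proteins within mitochondria. Heat, oxidants and other proteotoxic stress induce many of these genes through heat shock factor 1, which binds inverted GAA and TTC units known as the heat shock element. Hspa5, the HSP70 of the endoplasmic reticulum, is induced by the unfolded protein response instead, through the endoplasmic reticulum stress element.

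The promoters are shown because most of those matched hold the sequence of an element that sets these stress responses apart. RefSeq windows of 300 bases (250 before and 50 after the gene start, build GRCr8) matched 9 of the 10 genes. No window was used for Hsp90aa1. The heat shock element core, GAANNTTC or TTCNNGAA on either strand, was found in 7 of these 9 windows, against 15.9% of all 33469 windows of the same length. At least 2 cores, which may overlap, stood in 6 of the 9 windows, against 2.28% of all windows; the windows of Hspd1 and Hspe1 share 211 bases and the same cores, so they are not separate cases. Below, cores and the reticulum element are in capitals, overlapping cores run together, and only bases before the gene start are printed, in the gene's direction.

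Hspa8, chr8:50080281-50080491, plus strand:
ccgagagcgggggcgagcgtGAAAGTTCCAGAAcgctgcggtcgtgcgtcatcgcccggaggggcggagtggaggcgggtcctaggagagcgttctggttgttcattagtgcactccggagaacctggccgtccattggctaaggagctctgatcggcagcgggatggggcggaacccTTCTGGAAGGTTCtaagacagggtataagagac
Hsph1, chr12:10427243-10427364, plus strand:
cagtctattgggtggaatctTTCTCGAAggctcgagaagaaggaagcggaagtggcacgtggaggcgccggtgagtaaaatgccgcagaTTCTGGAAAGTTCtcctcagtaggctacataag
Hspe1, chr9:64084077-64084326, plus strand:
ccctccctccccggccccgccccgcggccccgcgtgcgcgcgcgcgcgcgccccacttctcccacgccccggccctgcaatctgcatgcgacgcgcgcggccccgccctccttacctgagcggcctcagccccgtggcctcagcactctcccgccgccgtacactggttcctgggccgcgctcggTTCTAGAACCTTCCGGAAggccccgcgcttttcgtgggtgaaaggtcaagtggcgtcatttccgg
Hspb1, chr12:26432383-26432450, minus strand:
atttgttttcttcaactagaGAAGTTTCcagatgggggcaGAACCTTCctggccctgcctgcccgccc
Bag3, chr1:192533308-192533355, plus strand:
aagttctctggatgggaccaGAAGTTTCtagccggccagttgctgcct
Dnajb1, chr19:41431142-41431172, minus strand:
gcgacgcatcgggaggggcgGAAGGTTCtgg
Hspa5, chr3:38452953-38453011, plus strand:
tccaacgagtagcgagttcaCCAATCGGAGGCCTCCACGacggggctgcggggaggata

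Hspd1 and Hspe1 stand head to head, with 290 bases between their starts, so the stretch printed for Hspe1, with its run of 3 overlapping cores, is the promoter of both. The sequence CCAAT followed by CCACG after 9 bases was found in the Hspa5 window alone among the 9, and in 0.0657% of all windows on either strand. The Hsp90ab1 window held neither sequence, which says only that these letters are not in that window. A match is a description of the letters and not a measured binding site.

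The libraries were similar in depth, with 36920743 to 38842283 reads implied by the FPKM values. The defining markers of the labelled cell type were largely absent: of 14 neuron markers, 11 stayed under 0.5 FPKM in every library, among them Tubb3 (at most 0.0922 FPKM), Prph (at most 0.097 FPKM) and Stmn2 (at most 0.0991 FPKM). Uchl1, Isl1 and Nefh were the neuron markers above that level, and the range of the summed list was 112 to 120 FPKM in control, 117 to 128 with menthol, 120.01 to 127 with Wnt3a and 119.9 to 133 with menthol and Wnt3a. Of 8 neuroblastoma and sympathetic markers, 6 were in the table and 4 of these stayed under 0.5 FPKM, with Th, Dbh, Phox2a and Chga near 0. Hand2, at 13.8 to 18.3 FPKM, and Gata3, at 0.855 to 1.41 FPKM, were above that level in every library. The summed level of 8 stromal markers, mostly Thy1 and Col1a2, was 286 to 293 FPKM in control, 265 to 269.5 with menthol, 276 to 279.5 with Wnt3a and 263 to 269.9 with menthol and Wnt3a. Of this list, Dcn (at most 0.325 FPKM) and Lum (at most 0.204 FPKM) were near 0. Col1a1, Col3a1, Pdgfra and Pdgfrb lay between 1.78 and 7.83 FPKM, so the sum rests on 2 genes. The Schwann cell, leukocyte and skeletal muscle lists summed to at most 2.5, 2.97 and 10.2 FPKM. The part of these markers in the results below was not tested. In bulk samples, fewer cells with a transcript and less of it per cell cannot be told apart.

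Most of the 10 genes were among the abundant transcripts of the control cells. In control, Hspa8 was the 40th most abundant of the 21556 genes listed, Hsp90ab1 the 58th, Hspa5 the 204th and Hspd1 the 266th. Hspe1 ranked 297th, Hsp90aa1 328th, Hspb1 523rd, Hsph1 962nd, Bag3 1884th and Dnajb1 4191st. The summed level of the 10 genes was 3230 to 3420 FPKM over the 12 libraries, which was 0.709 to 0.733% of all FPKM. Hspa8 and Hsp90ab1 together made up 63.6 to 64.3% of that sum.

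**Figure D1:**
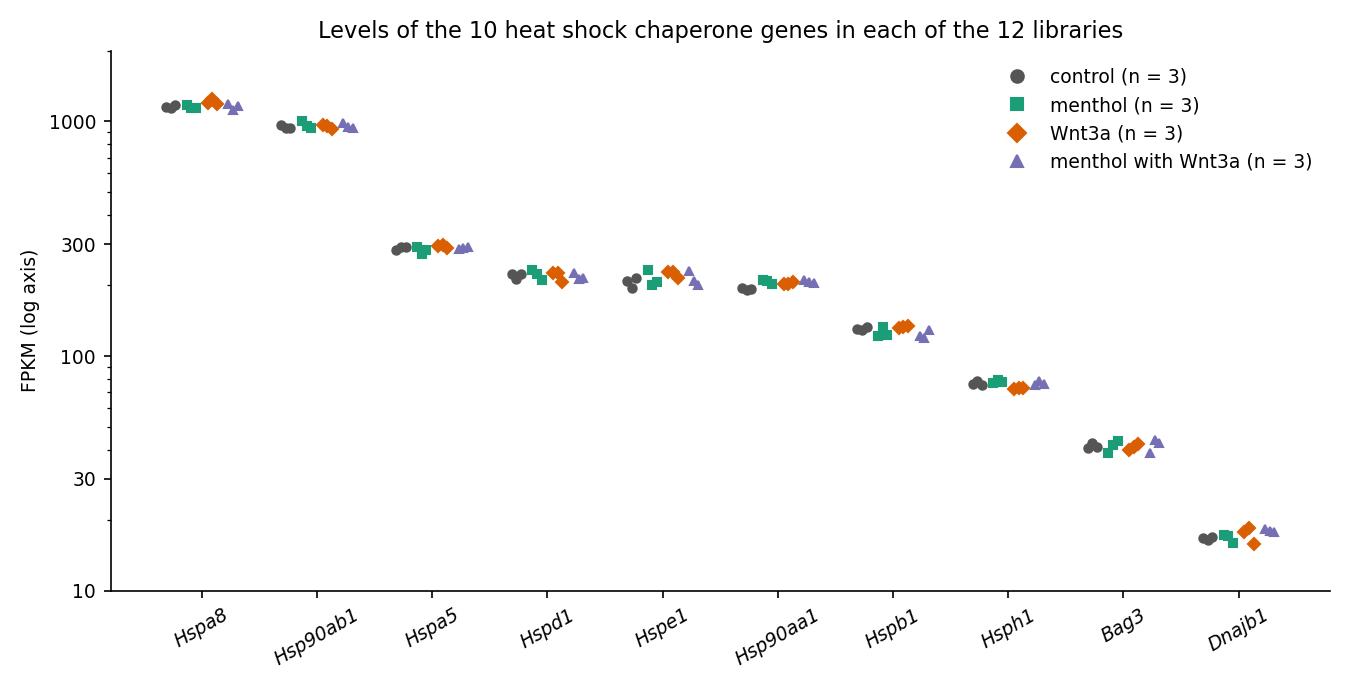
FPKM (log axis) of the 10 genes in each of the 12 libraries, with genes ordered by their control mean and 1 point per library. The order runs from Hspa8 (1117 to 1242 FPKM) to Dnajb1 (15.8 to 18.5 FPKM), and the 4 groups lie on top of each other at this scale.

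Within the HSP70 cycle the levels spanned a wide range. Hspa8, the constitutive HSP70 of the cytosol, had 1151 ± 17.2 FPKM in control (SD, n = 3). The J-domain protein Dnajb1 had 16.8 ± 0.269 FPKM, and the ratio of Hspa8 to Dnajb1 was 62.0 to 75.4 over the 12 libraries. Both exchange factors lay between them, with Hsph1 at 76.6 ± 1.36 FPKM and Bag3 at 41.4 ± 0.994 FPKM in control (SD, n = 3). FPKM is a level per gene length, so these ratios compare transcripts and not proteins.

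The constitutive and the inducible cytosolic HSP90 differed in the same direction. Hsp90ab1, the constitutive form, had 945 ± 15.4 FPKM and Hsp90aa1, the inducible form, 193 ± 1.52 FPKM in control (SD, n = 3). Their ratio was 4.47 to 4.94 over the 12 libraries. In the organelles, Hspa5 had 289 ± 4.66 FPKM, Hspd1 219.8 ± 5.75 FPKM and Hspe1 207 ± 9.79 FPKM in control (SD, n = 3). Hspb1, the small heat shock protein that holds unfolded proteins without using ATP, had 131 ± 1.64 FPKM.

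Most neighbours in this order were separated in every library. The exceptions were Hspd1, Hspe1 and Hsp90aa1. Hspd1 and Hspe1, whose proteins form the mitochondrial chaperonin and its lid, overlapped within each of the 4 groups, and their ratio was 0.961 to 1.12 over the 12 libraries. Hspd1 was the higher of the pair in 3 of 3 control, 3 of 3 menthol, 0 of 3 Wnt3a and 2 of 3 menthol with Wnt3a libraries. Hspe1 and Hsp90aa1 overlapped in the menthol and in the menthol with Wnt3a libraries, but not in control or with Wnt3a alone.

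The inducible HSP70 genes were close to absent. Hspa1b, which heat and proteotoxic stress strongly induce in most cells, was at 0.0129 to 0.0706 FPKM, at most 11 reads in a library. Hspa1a was not listed by that symbol. A gene that the table describes as heat shock 70 kDa protein 1A, LOC108348108, chosen after its values were seen, was at 0.0211 to 0.161 FPKM. These genes are near-identical copies, so reads that align to both may have been lost in counting and their low values are uncertain. Heat shock factors were expressed, Hsf1 at 19.4 ± 0.368 FPKM and Hsf2 at 13.6 ± 0.698 FPKM in control (SD, n = 3).

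No treatment moved any of the 10 genes past the threshold. Counted by limma on log2(FPKM + 0.1), with Benjamini-Hochberg adjustment over all genes tested, 0 of 10 had an adjusted p under 0.05 in any of the 8 comparisons: the 5 between pairs of groups, the interaction, and menthol and Wnt3a each averaged over the other. The share of all genes past that adjusted p was 0.105% for menthol against control and 0.437% for Wnt3a against control. For the group given both agents it was 0.0524% against Wnt3a, 0.0961% against menthol and 0.83% against control. It was 0% for the interaction, 1.15% for menthol averaged over Wnt3a and 0.803% for Wnt3a averaged over menthol. With a change of more than 2-fold required as well, 0 of 10 were called, against 0.00873% of all genes for menthol against control and for menthol averaged over Wnt3a, 0.0175% for Wnt3a against control and 0% in the other 5 comparisons. With so few genes called in all, a count of 0 among 10 is close to the background.

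At an unadjusted p under 0.05, limma counted 1 of 10 for menthol against control (9.34% of all genes) and 3 for Wnt3a against control (15.1%). The group given both agents had 3 against Wnt3a (14.5%), 0 against menthol (6.72%) and 2 against control (13.5%). The counts were 1 for the interaction (6.99%), 3 for menthol averaged over Wnt3a (15.5%) and 2 for Wnt3a averaged over menthol (14.2%). Limma voom on the recovered reads gave 1 of 10 past the adjusted p, Hsp90aa1 for menthol with Wnt3a against control (adjusted p = 0.0425), and 0 in the other 7 comparisons. Of the 5 pairwise comparisons, 3 use the same control libraries, so their counts are not independent.

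The intervals around these differences were narrow. The farthest 95% bound of any of the 10 genes from 0, on the log2 scale, was 0.17 for menthol against control (Hspe1), 0.24 for Wnt3a against control (Hspe1) and 0.22 for menthol with Wnt3a against control (Dnajb1). As folds these are 1.12, 1.18 and 1.16. Irrespective of sign, the median log2 difference of the 10 genes was 0.03 for menthol against control and 0.04 for Wnt3a against control, beside 0.05 and 0.06 over all genes tested. The genes tested were not matched to the 10 for level. The median signed difference was 0.01 and 0.03 for the same comparisons, beside 0.00 and 0.00 over all genes.

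**Figure D2:**
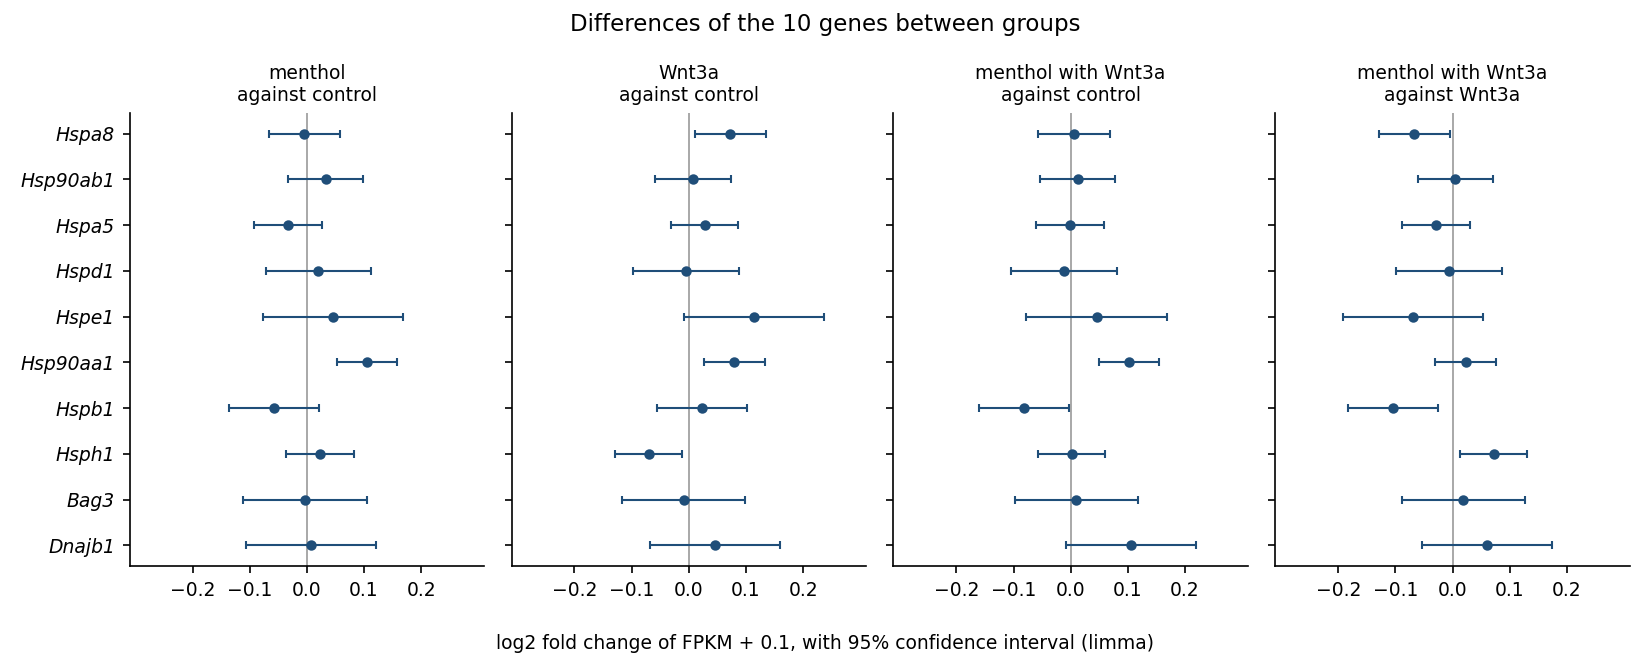
Log2 fold change of each gene with its 95% confidence interval from limma (n = 3 per group), for 4 comparisons. Hsp90aa1 lies above 0 in the 3 comparisons against control, at 0.10, 0.08 and 0.10, and no interval of the 10 genes reaches beyond 0.24 on either side.

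Hsp90aa1 came closest to the threshold. The control libraries had 194.8, 191.7 and 193.1 FPKM and the menthol libraries 211.6, 209.0 and 202.8 FPKM. The Wnt3a libraries had 203.4, 202.4 and 206.7 FPKM, and those with menthol and Wnt3a 210.4, 206.2 and 205.7 FPKM. All 9 treated libraries were above all 3 control libraries, and the 3 treated groups overlapped each other. The log2 fold change was 0.10 for menthol against control (SE 0.02, adjusted p = 0.156), 0.08 for Wnt3a against control (SE 0.02, adjusted p = 0.148) and 0.10 for menthol with Wnt3a against control (SE 0.02, adjusted p = 0.0764). Averaged over Wnt3a, the menthol difference was 0.06 (adjusted p = 0.0972). The interaction was -0.08 (95% interval -0.16 to -0.01, adjusted p = 0.715), so the difference between the menthol effect with and without Wnt3a did not pass.

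Over the alternatives, the adjusted p of Hsp90aa1 for menthol with Wnt3a against control ran from 0.0425 with voom to 0.213 without control replicate 2. Its constitutive paralog Hsp90ab1 had 924 to 1000.2 FPKM over the 12 libraries, and its groups overlapped in each pairwise comparison. The Hsp90ab1 difference was 0.03 for menthol against control (95% interval -0.03 to 0.10) and 0.01 for Wnt3a against control (95% interval -0.06 to 0.07). The ratio of Hsp90ab1 to Hsp90aa1 was 4.86 to 4.94 in control and 4.47 to 4.75 in the 9 treated libraries.

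**Figure D3:**
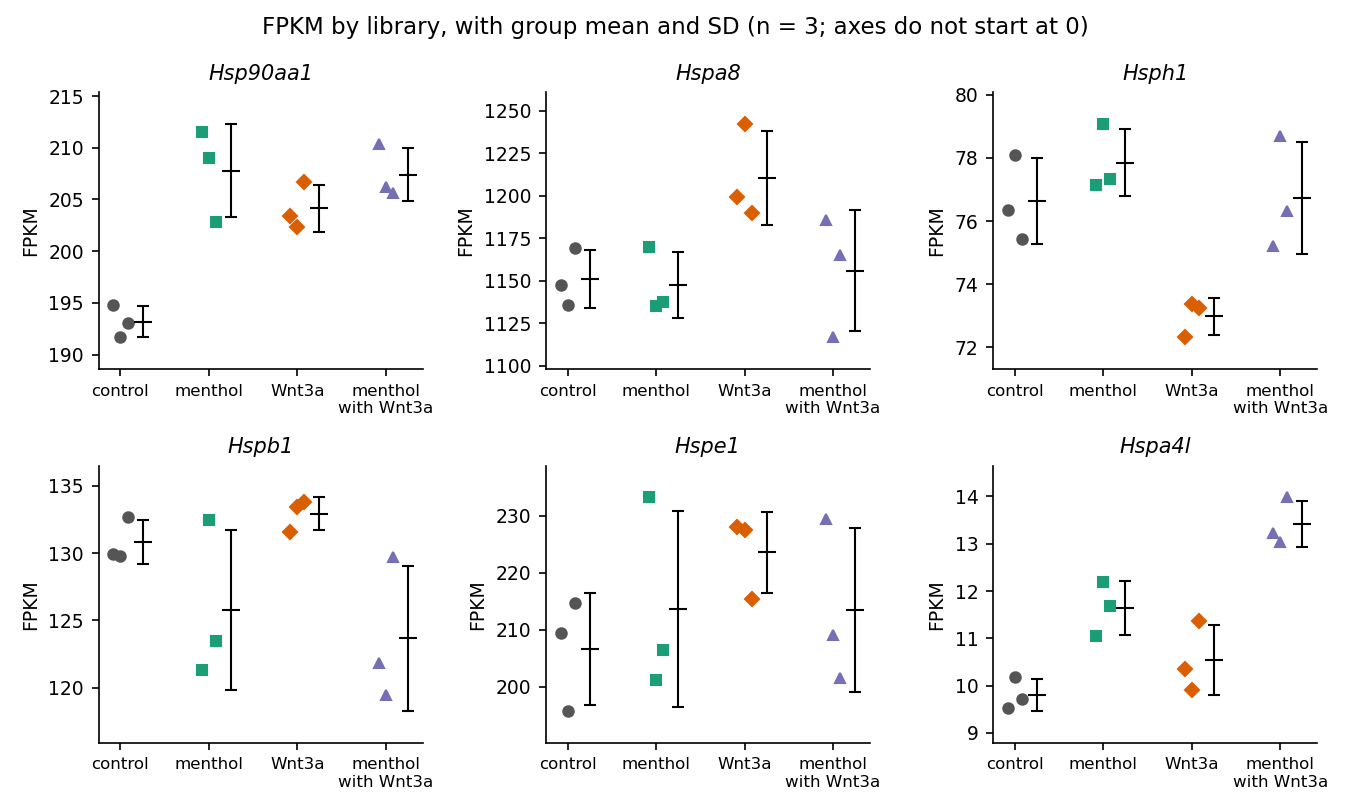
FPKM of 5 members and of Hspa4l in each library, by group, with the group mean and SD (n = 3); axes do not start at 0. Hsp90aa1 is at 191.7 to 194.8 FPKM in control and at 202.4 to 211.6 FPKM in the treated libraries, and Hspa4l is highest in the libraries with menthol and Wnt3a.

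Hspa8 and its exchange factor Hsph1 stood apart in the Wnt3a group, in opposite directions. Hspa8 had 1147, 1136 and 1169.5 FPKM in the control libraries, 1199, 1242 and 1190.2 FPKM in the Wnt3a libraries, and 1186, 1117 and 1165 FPKM in those given both agents. Hsph1 had 76.3, 78.1 and 75.4 FPKM in the control libraries, 72.3, 73.4 and 73.2 FPKM in the Wnt3a libraries, and 75.2, 78.7 and 76.3 FPKM in those given both agents. The 3 Wnt3a libraries were above both other groups for Hspa8 and below them for Hsph1. The differences were small: 0.07 for Hspa8 (SE 0.03, adjusted p = 0.251) and -0.07 for Hsph1 (SE 0.03, adjusted p = 0.242) when Wnt3a was compared with control. When both agents were compared with Wnt3a they were -0.07 for Hspa8 (adjusted p = 0.312) and 0.07 for Hsph1 (adjusted p = 0.261). Without the second library given both agents, the lowest of its group, the Hspa8 value was -0.04 (adjusted p = 0.653).

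With menthol alone, both genes overlapped the control. The menthol libraries had 1169.8, 1135 and 1137 FPKM for Hspa8 and 77.1, 79.1 and 77.3 FPKM for Hsph1. Their menthol differences from control were 0.00 (95% interval -0.07 to 0.06) and 0.02 (95% interval -0.04 to 0.08). The ratio of Hspa8 to Hsph1 ran from 14.2 to 16.9 over the 12 libraries.

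Hspb1 was lower in part of the menthol libraries. It had 129.9, 129.8 and 133 FPKM in control, 121, 132 and 123 with menthol, 132, 133 and 134 with Wnt3a, and 122, 119 and 129.7 with menthol and Wnt3a. In each menthol group 1 library of 3 stayed near the control level, and the menthol libraries overlapped those of the control. The libraries with menthol and Wnt3a lay below the 3 Wnt3a libraries and below the 3 control libraries. The highest library with both agents was below the lowest control library by less than 1 FPKM. The log2 fold change for menthol with Wnt3a was -0.10 against Wnt3a (SE 0.04, adjusted p = 0.234) and -0.08 against control (adjusted p = 0.349). For menthol alone it was -0.06 (95% interval -0.14 to 0.02), and -0.10 to -0.03 with 1 library left out. Averaged over Wnt3a, the menthol difference was -0.08 (adjusted p = 0.158).

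The mitochondrial pair varied between libraries of a group as much as between groups. Hspe1 had 209, 196 and 215 FPKM in control, 233, 201 and 206 with menthol, 228, 227 and 215 with Wnt3a, and 229, 209 and 202 with menthol and Wnt3a. Hspd1 had 223, 213 and 223 FPKM in control, 234, 224 and 211 with menthol, 226, 225 and 207 with Wnt3a, and 227, 212 and 215 with menthol and Wnt3a. The lowest Wnt3a library of Hspe1 stood above the highest control library by less than 1 FPKM, and otherwise the groups of both genes overlapped. For Hspe1, the Wnt3a difference from control was the largest of the 10 genes, at 0.11 (SE 0.06, 95% interval -0.01 to 0.24, adjusted p = 0.373). For Hspd1 the difference was 0.02 with menthol (95% interval -0.07 to 0.11) and 0.00 with Wnt3a (95% interval -0.10 to 0.09). Hspe1 with menthol was at 0.05 (95% interval -0.08 to 0.17).

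Hspa5 and Bag3, which report on the unfolded protein response and on proteotoxic stress in many cells, stayed near the control level. Hspa5 had 273 to 298 FPKM over the 12 libraries, and its difference from control was -0.03 with menthol (95% interval -0.09 to 0.03) and 0.03 with Wnt3a (95% interval -0.03 to 0.09). Bag3 had 38.7 to 43.9 FPKM, with 0.00 for menthol (95% interval -0.11 to 0.10) and -0.01 for Wnt3a (95% interval -0.12 to 0.10). With 1 library left out, the menthol value of Hspa5 ran from -0.06 to -0.01. In both genes the groups overlapped in each pairwise comparison.

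Dnajb1, the least abundant of the 10, had 16.9, 16.5 and 16.98 FPKM in control, 17.4, 17.1 and 16.1 with menthol, 17.8, 18.5 and 15.8 with Wnt3a, and 18.4, 18.02 and 17.8 with menthol and Wnt3a. The libraries with both agents lay above those of control and of menthol, and within the range of those with Wnt3a. The difference was 0.11 against control (SE 0.05, adjusted p = 0.409) and 0.10 against menthol (SE 0.05, adjusted p = 0.798). It was 0.01 for menthol alone (95% interval -0.11 to 0.12) and 0.05 for Wnt3a alone (95% interval -0.07 to 0.16). Without the third Wnt3a library, the lowest of the 12, the Wnt3a difference was 0.11 (adjusted p = 0.191), and its direction turned to 0.00 without the second, with an adjusted p of 0.997.

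Counted by overlap, 1 of 10 genes had no overlap between menthol and control (Hsp90aa1), against 15.9% of all genes, and 4 of 10 none between Wnt3a and control (Hspa8, Hsp90aa1, Hspe1 and Hsph1), against 20.2%. For menthol with Wnt3a the counts were 3 of 10 against Wnt3a (17.7% of all genes), 1 of 10 against menthol (11.3%) and 3 of 10 against control (20.5%). The coefficient of variation over the 12 libraries was 2.3 to 5.86% for the 10 genes, with a median of 3.46%, beside a median of 4.39% over the 5810 tested genes with a mean of at least 10 FPKM. Those genes were not matched to the 10 for level, so the medians do not compare genes of like abundance.

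Whether the chaperones varied together from library to library was examined over 12 libraries and all 45 pairs. Of these, 22 had a Pearson's r above 0 and 23 below 0. The strongest positive pair was Hsp90ab1 and Hspd1 (r = 0.89, permutation p = 2e-04, adjusted p = 0.00517, rho = 0.83, permutation p = 0.00145, adjusted p = 0.0217). Without the 2 libraries farthest from the median of Hsp90ab1, its r was 0.84. Hspa8 and Hsph1 went in opposite directions (r = -0.88, permutation p = 0.00023, adjusted p = 0.00517, rho = -0.93, permutation p = 7e-05, adjusted p = 0.00315, and r = -0.90 without the 2 farthest libraries).

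Bag3 varied against Hspd1, Hsp90ab1 and, less firmly, Hspe1. Its r was -0.85 with Hspd1 (permutation p = 0.00063, adjusted p = 0.00709, rho = -0.85, permutation p = 0.00106, adjusted p = 0.0217), and -0.90 without the 2 libraries farthest from the median of Hspd1. With Hsp90ab1 it was -0.84 (permutation p = 0.0005, adjusted p = 0.00709, rho = -0.73, permutation p = 0.00875, adjusted p = 0.0656), and -0.64 without 2 libraries. With Hspe1 it was -0.77 (permutation p = 0.00429, adjusted p = 0.0386, rho = -0.76, permutation p = 0.00652, adjusted p = 0.0587), and -0.71 without 2 libraries. With libraries centred on their median, the adjusted p of Hspe1 and Bag3 was 0.0521. The 12 libraries are 4 groups of 3, so part of each r can come from the groups. Over deviations from the group means, r was -0.69 for Hspa8 and Hsph1, with an adjusted p of 0.0545. On the same deviations, r of Bag3 was -0.87 with Hspd1, -0.92 with Hsp90ab1 and -0.86 with Hspe1.

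**Figure D4:**
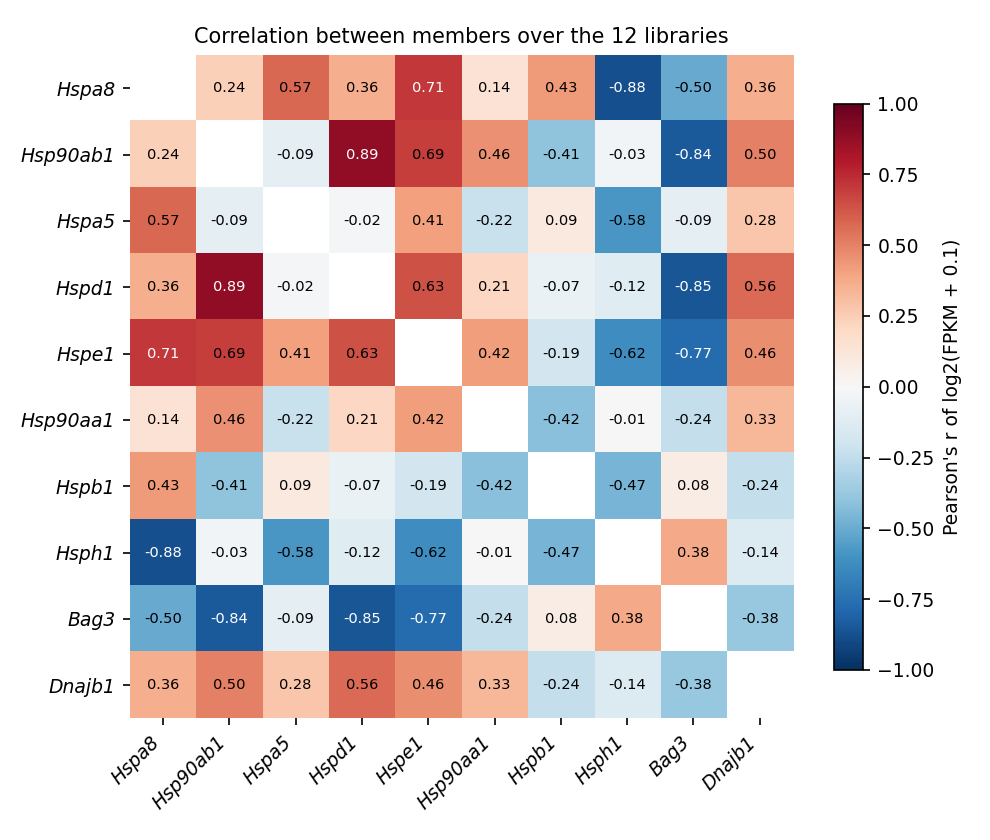
Pearson's r of log2(FPKM + 0.1) over the 12 libraries for each pair of the 10 genes, red above 0 and blue below. Hsp90ab1 and Hspd1 (0.89) and Hspa8 and Hsph1 (-0.88) are the strongest in each direction, and Bag3 is below 0 with 7 of the other 9.

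The head-to-head pair Hspd1 and Hspe1, with the shared promoter printed above, had r = 0.63 (permutation p = 0.0291, adjusted p = 0.163, rho = 0.63, permutation p = 0.0317, adjusted p = 0.161), and 0.78 without the 2 libraries farthest from the median of Hspd1. Over deviations from the group means r was 0.78, with an adjusted p of 0.0229. The HSP90 paralogs had r = 0.46 (permutation p = 0.135, adjusted p = 0.358, rho = 0.46, permutation p = 0.133, adjusted p = 0.372), and 0.28 without 2 libraries. For Hspa8 and Dnajb1 r was 0.36 (permutation p = 0.25, adjusted p = 0.432, rho = 0.30, permutation p = 0.342, adjusted p = 0.531), and 0.38 without 2 libraries.

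Among 5800 other genes with a mean of at least 10 FPKM, those whose log2 level over the 12 libraries was most like Hspa8 were Mycbp (r = 0.93), Alg5 (r = 0.92) and Isca2 (r = 0.92). Most like Hspa5 were Mrps16 (r = 0.93), Copg2 (r = 0.86) and Ethe1 (r = 0.84), and most like Hspd1 were Timm9 (r = 0.91), Eif4a2 (r = 0.91) and Srm (r = 0.88). These are the highest of many correlations over the same 12 libraries and are given as a description.

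In the wider chaperone network, 1 gene passed in limma on log2(FPKM + 0.1). Of 119 other genes in 10 lists of chaperones, co-chaperones and their regulators, 116 were in the table and 107 were tested. Only Hspa4l had an adjusted p under 0.05, in 2 of the 8 comparisons. These were menthol with Wnt3a against control, where 0.83% of all genes passed, and menthol averaged over Wnt3a, where 1.15% did. A count of 1 among 107 is close to those shares. Hspa4l encodes a member of the HSP110 family, as Hsph1 does. It had 9.53, 10.2 and 9.71 FPKM in control and 11.04, 12.2 and 11.7 with menthol. With Wnt3a it had 10.4, 9.91 and 11.4 FPKM, and with menthol and Wnt3a 13.2, 13.0 and 14.0.

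Hspa4l rose with menthol and Wnt3a against control (log2 fold change 0.45, SE 0.06, adjusted p = 0.0016) and with menthol averaged over Wnt3a (0.30, SE 0.04, adjusted p = 0.00409). The libraries with both agents were above the other 9. For menthol alone the difference was 0.24 (adjusted p = 0.156), for menthol with Wnt3a against Wnt3a 0.35 (adjusted p = 0.0501), and for Wnt3a alone 0.10 (adjusted p = 0.431). The Wnt3a value was 0.05 without the third Wnt3a library and 0.15 without the second. With voom the difference for menthol alone passed (adjusted p = 0.0375). Hspa4l passed the adjusted p in the first 2 comparisons without each library in turn, with adjusted p of 0.001 to 0.0133 and 0.00224 to 0.0156. Its change stayed under 2-fold throughout. The Hspa4l promoter window held 1 heat shock element core, 38 bases after the gene start.

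**Figure D5:**
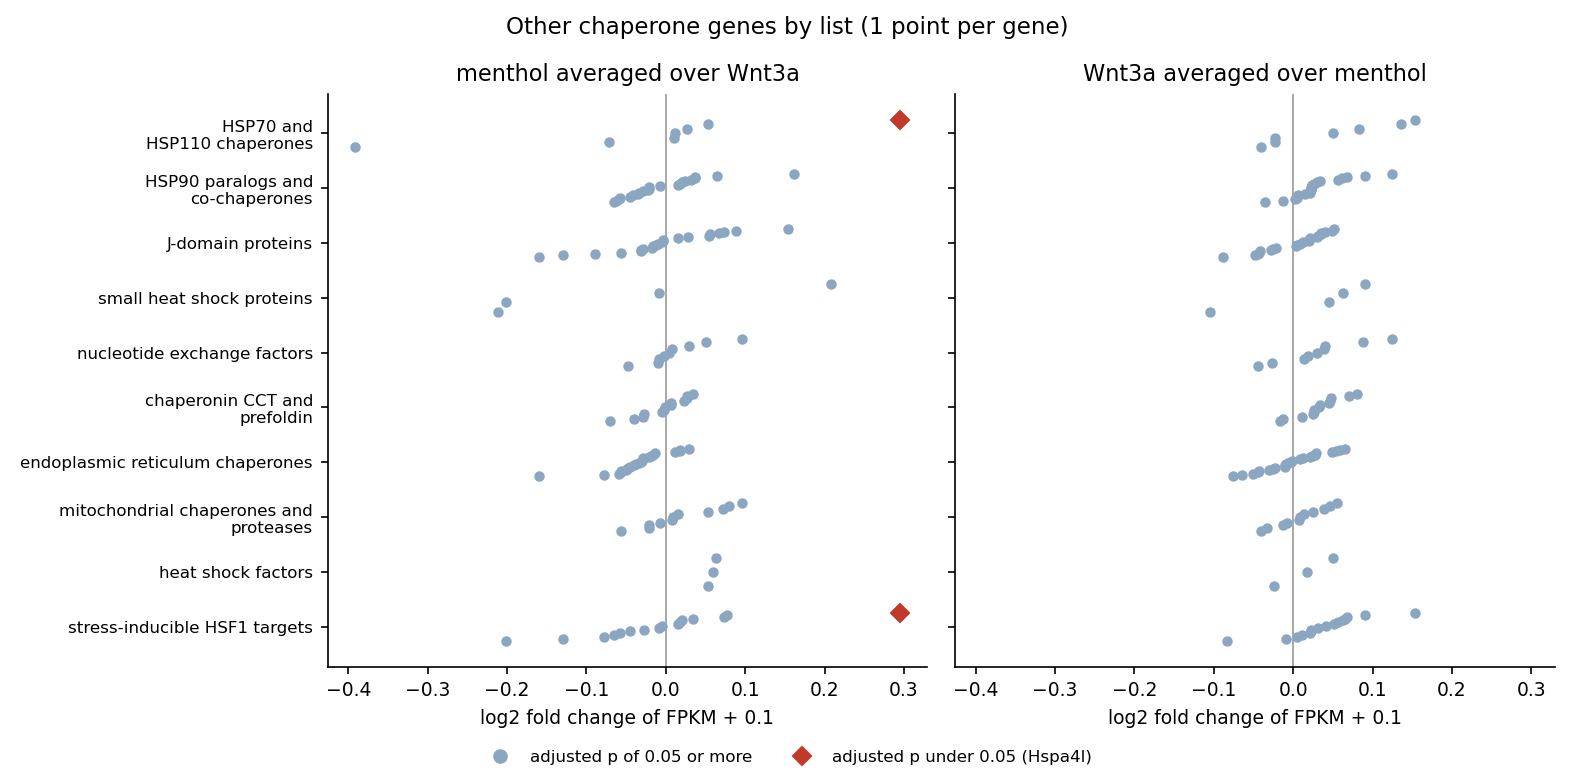
Log2 fold change of the other tested chaperone genes by list, for menthol averaged over Wnt3a (left) and Wnt3a averaged over menthol (right), with 1 point per gene; a gene on 2 lists appears on both. Only Hspa4l (0.30 on the left) has an adjusted p under 0.05.

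By list, the small heat shock proteins had 4 of 9 genes tested, of which 0 passed. Hspb6 was closest, at -0.32 for menthol with Wnt3a against control (adjusted p = 0.0759) and -0.21 for menthol averaged over Wnt3a (adjusted p = 0.0767). Without the third control library both passed, at -0.41 (adjusted p = 0.0283) and -0.26 (adjusted p = 0.0275). Each passed in that 1 of the 12 fits with a library left out. The largest adjusted p were 0.258, without the first control library, and 0.176, without the second library given both agents. Cryab, at 3.02 ± 0.362 FPKM in control, and Hspb8, at 55.7 ± 0.728 FPKM (SD, n = 3), did not pass either.

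Of the HSP70 and HSP110 list, 7 of 12 were tested, and Hspa4l passed. In control its most abundant genes were the mitochondrial Hspa9, at 214 ± 2.56 FPKM, and Hspa4, at 136 ± 0.709 FPKM (SD, n = 3). Hspa9, the mitochondrial partner of the Hspd1 chaperonin, was at 0.05 for menthol averaged over Wnt3a (adjusted p = 0.223). The 11 mitochondrial chaperones and proteases outside the 10 genes, Hspa9 among them, gave 0 past the adjusted p, with Lonp1 at 86.5 ± 0.708 FPKM in control.

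The 24 other chaperones of the endoplasmic reticulum also gave 0. For menthol averaged over Wnt3a, 20 of the 24 were below 0 and 4 above, with a median log2 fold change of -0.03, beside 0.00 over all genes tested. Hsp90b1, the HSP90 of the reticulum, at 252 ± 4.62 FPKM in control (SD, n = 3), was at -0.06 (adjusted p = 0.2), and Dnajb9, a J-domain protein induced by the unfolded protein response, at -0.16 (adjusted p = 0.0972). Calr, at 559 ± 15.6 FPKM, and Pdia3, at 439 ± 6.5 FPKM, were the most abundant of this list in control.

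The 22 HSP90 paralogs and co-chaperones, the 22 other J-domain proteins and the 9 other exchange factors all gave 0 past the adjusted p. Ppid, a cyclophilin that binds HSP90, was at 0.18 for Wnt3a against control (adjusted p = 0.102). Its adjusted p was 0.0445 without the third Wnt3a library and 0.343 without the first control library, and it passed in 1 of 12 such fits. Dnajb4 was at -0.13 for menthol averaged over Wnt3a (adjusted p = 0.0949) and Bag1 at 0.14 for Wnt3a against control (adjusted p = 0.0961). For Wnt3a averaged over menthol, 20 of the 22 HSP90 genes and 11 of 13 tested genes of the cytosolic chaperonin and prefoldin were above 0, with medians of 0.02 and 0.03, beside 0.00 over all genes tested. In the presence of menthol, 13 of 22 and 7 of 13 were above 0, with medians of 0.00 and 0.02. For menthol with Wnt3a against Wnt3a, 16 of 22 and 12 of 13 were below 0. For menthol against control, 12 of 22 and 12 of 13 were above 0, with medians of 0.01 and 0.03. These comparisons share libraries, so their counts are not independent. Neither list had a gene past the adjusted p in any comparison by this fit, and Pfdn1, a prefoldin subunit, was the closest of the chaperonin list, at 0.12 for Wnt3a against control (adjusted p = 0.133). The most abundant genes of these lists in control were Ptges3 (261 FPKM) and Stip1 (184 FPKM) of the HSP90 list, Dnaja1 (184 FPKM) and Dnaja2 (71.9 FPKM) of the J-domain list, Bag1 (66.4 FPKM) and Bag6 (44.4 FPKM) of the exchange factors, and Cct5 (247 FPKM) and Cct4 (222 FPKM) of the chaperonin.

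Of the heat shock factors and their binding protein Hsbp1, 3 of 4 genes were tested and 0 passed. Hsbp1, at 81.6 ± 1.55 FPKM in control (SD, n = 3), was at 0.06 for menthol averaged over Wnt3a (adjusted p = 0.25). Of 18 stress-inducible targets of heat shock factor 1 outside the 10 genes, 16 were tested. Hspa4l, counted in this list too, passed, and the others did not. Ubb, a polyubiquitin gene, was the most abundant of them, at 685 ± 8.25 FPKM in control (SD, n = 3). The median of the list was -0.01 for menthol averaged over Wnt3a and 0.04 for Wnt3a averaged over menthol, beside -0.001 and 0.003 over all genes tested. For Wnt3a against control 15 of 16 were above 0, with a median of 0.06. For menthol with Wnt3a against Wnt3a 12 of 16 were below 0, with a median of -0.03. The last 2 comparisons share the Wnt3a libraries.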

How the data were processed

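RNA of 12 ND7/23 libraries was measured by paired-end sequencing. The authors used TRIzol for extraction and the VAHTS Universal V6 kit for library construction and, per the submitters' processing notes, fastp, HISAT, HTSeq and R 3.2.0 with build mRatBN7.2. Versions of the other tools and the strand setting are not given in the sources used here. The deposited values are FPKM per gene, with replicates kept apart. FPKM is scaled to the reads of a library, so a rise of abundant genes lowers all others. The line is a rat and mouse hybrid aligned to a rat build, and how reads of mouse transcripts were assigned was not tested.

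Groups and replicate numbers came from the sample labels. Nothing in the labels says whether replicates were separate cultures, so p-values measure the spread between these libraries, which may be technical. Replicates differed by more than sampling noise in each pair of a group (chi-square per degree of freedom 3.53 to 7.61 over genes).

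The main test was limma 3.58.1 (R 4.3.3) on log2(FPKM + 0.1), over 11451 genes with a mean of at least 0.5 FPKM, with all 4 groups in 1 fit, a variance trend and Benjamini-Hochberg adjustment over all genes tested. Fold changes are on that scale. Calls required more than 2-fold and an adjusted p under 0.05, the thresholds of the study's methods. The steps of the FPKM values gave whole reads for all 21556 genes (relative distance from a whole number at most 3.4e-13), and limma voom was run on them. Correlations used 100000 permutations (numpy 2.4.6), and the 2 sides of each test were counted. Both steps were tested on simulated data. Intervals of 95% are confidence intervals of a difference between group means, with the error taken from the spread between libraries.

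The 10 genes, the gene lists and the tests were chosen with earlier results of these data known. Genes outside the 10 were named by rule: in each list every gene past the adjusted p in any comparison, or else the gene with the smallest, the 2 most abundant in control, a few fixed genes, and for 3 members the 3 most similar genes. The alternatives were pseudocounts of 0.01 and 1, a mean of at least 1 FPKM, no minimum, median centring, voom, a replicate block, each library left out, and only the 2 groups compared. Sequences are from RefSeq (GRCr8), a build other than that of the files, so they were matched by gene and not by position.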

Additional observations from a re-analysis of the deposited data

How the results depend on the processing

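The count of members past the adjusted p was 0 under every alternative but 1, over all 8 comparisons, or the 5 pairwise ones where only the 2 groups compared were fitted. With limma voom on recovered reads it was 1 for menthol with Wnt3a against control (Hsp90aa1, log2 fold change 0.10). The count called at more than 2-fold was 0 throughout. With each library left out in turn, both counts stayed at 0. The replicate block gave 0 members past the adjusted p in each comparison, and it changed no call of a member. Same-numbered libraries did not deviate together (18 pairs, r of -0.06 to 0.15, over 0.1 in 1 pair), so the numbers were not taken to pair the samples. Under the block Hspa4l passed for menthol with Wnt3a against Wnt3a (0.35, adjusted p = 0.0311).

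Directions near 0 turned when 1 library was left out, and no other alternative turned a direction printed above. The ranges without 1 library, for menthol against control, were -0.0396 to 0.0434 for Bag3, -0.0151 to 0.041 for Dnajb1, -0.0182 to 0.00736 for Hspa8, -0.0141 to 0.0592 for Hspd1 and -0.0187 to 0.0877 for Hspe1. For Wnt3a against control they were -0.029 to 0.0116 for Bag3, -0.00129 to 0.111 for Dnajb1, -0.00558 to 0.027 for Hsp90ab1 and -0.0268 to 0.0357 for Hspd1. They were -0.0707 to 0.00262 for Hspd1, both agents against menthol, and -0.0118 to 0.101 for the interaction of Dnajb1. Without a turn of sign, 1 left-out library moved these values by over 1.5 times: Hspa5 for menthol against control (-0.0552 to -0.00882) and for Wnt3a against control (0.0146 to 0.0386), and, for menthol against control, Hspb1 (-0.0958 to -0.0324), Hsp90ab1 (0.00879 to 0.0522) and Hsph1 (0.0116 to 0.0367). The same held for Dnajb1, both agents against menthol (0.0652 to 0.121), Hspa8, both agents against Wnt3a (-0.0856 to -0.0422), Hspe1, Wnt3a against control (0.0759 to 0.143), and Hspa4l, Wnt3a against control (0.047 to 0.145). For Hspa4l, menthol with Wnt3a against Wnt3a, adjusted p ran from 0.00135 (voom) to 0.183 (without Wnt3a replicate 1). Over deviations from the group means, which share their means and so give p-values that are too small, 8 pairs of members passed instead of 5, r was 0.78 for Hspd1 and Hspe1 (now past the threshold) and -0.69 for Hspa8 and Hsph1 (no longer past it). With libraries centred on their median 6 pairs passed: Hspe1 and Bag3 no longer did (r = -0.72, adjusted p = 0.0521), while Hspa8 and Hspe1 (adjusted p = 0.0292) and Hsp90ab1 and Hspe1 (adjusted p = 0.0391) did. Why these values moved was not tested. The members had 1450 to 97122 reads in a library, and 3 libraries a group limit the precision to the intervals given.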
